A study of Mus musculus with 6 samples.

Results

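Retained introns of at most 100 bp were examined in mouse hepatocytes on a low-fat and on a high-fat diet. They were taken from the tables of splicing levels of both diets, as every intron of 100 bp or less that was listed with the same coordinates and the same competing junctions in both. There were 1866 such introns in 1171 genes, which is 51.0% of the 3657 retained introns listed for both diets. The other 1791 introns were longer than 100 bp. The length rule used no measured value.

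Hepatocytes came from the livers of male C57BL/6J mice. All mice ate chow of 13.5% fat up to the age of 8 weeks. For the next 12 weeks they ate a low-fat diet (LFD, 10% fat) or a high-fat diet (HFD, 60% fat). Each diet had 3 stranded poly(A)-selected mRNA libraries, read as paired ends of 100 cycles, and the tables held 1 value per intron and diet, pooled over the libraries. No spread between mice could therefore be given, no p-value was computed, and the read depth per library is unknown. The libraries are bulk, so a change within hepatocytes and a change in the mix of cells cannot be told apart. The tables hold no expression levels. A splicing variation was listed for 9 of 10 hepatocyte markers, 2 of 7 macrophage, 2 of 7 endothelial, 0 of 5 stellate and 1 of 5 bile duct markers. These counts record only whether a variation was listed and do not measure the mix of cells.

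Most mammalian introns are long and are recognised through the exons at their flanks. Very short introns leave the splicing machinery little room between the 5′ splice site, the branch point and the 3′ splice site, and are recognised as units of their own. An intron that stays in a polyadenylated RNA often brings a premature stop codon or a frameshift, and such RNA is often kept in the nucleus or degraded by nonsense-mediated decay. Where the retained stretch is itself coding sequence in frame, the RNA can instead encode a longer protein.

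The level is PSI, the fraction of the reads of a local splicing variation that use an entry, here the retained intron, and it runs from 0.0125 to 0.9875 in these tables. A variation is an exon with all junctions that leave or enter it. In all 6848 intron listings shared by the diets, the intron entry was the exon-intron boundary at that exon. An intron listed by variations at both of its ends was thus read once at each boundary and counted once here. A stretch listed on both strands was counted once per strand, as at Abca3 and D330041H03Rik. The boundary at the lower genome coordinate gave the value where both were listed. Each PSI comes with a posterior SD, which covers the reads of the pooled libraries and not the mice.

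The sequences below show the range of what the tables call a short retained intron, with the first and last 2 bases in capitals and the GRCm38/mm10 position and strand of each. They were read from GENCODE M21 transcripts that keep the stretch within an exon. Get4 and Ppp1r16a were taken because they are annotated coding introns past the threshold between diets described further on. The Gmppb intron, in a 5′ UTR, is also annotated and past that threshold but is not printed. The other sequences were chosen after their values were seen. The first group holds introns that splicing normally removes, or that compete with another splice, and whose PSI differed between the diets at one boundary or both.
Get4 chr5:139267145-139267226(+): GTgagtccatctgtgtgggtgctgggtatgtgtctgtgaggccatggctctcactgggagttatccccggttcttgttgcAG
Ppp1r16a chr15:76693139-76693226(+): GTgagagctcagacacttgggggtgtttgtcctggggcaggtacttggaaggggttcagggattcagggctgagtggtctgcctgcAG
Smpd2 chr10:41488098-41488176(-): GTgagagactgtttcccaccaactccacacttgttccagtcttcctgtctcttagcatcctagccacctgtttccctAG
Stat2 chr10:128283158-128283229(+): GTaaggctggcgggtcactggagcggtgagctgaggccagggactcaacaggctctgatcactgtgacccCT
Nr1i3 chr1:171217245-171217313(+): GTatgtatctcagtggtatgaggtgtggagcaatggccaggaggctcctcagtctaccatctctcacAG
Vmp1 chr11:86586599-86586671(-): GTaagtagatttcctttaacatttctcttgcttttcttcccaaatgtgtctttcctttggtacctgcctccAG

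The next group holds annotated coding introns with a PSI far above that of most coding introns on both diets. The lowest were Sat1 (0.294 on LFD and 0.418 on HFD) and Stub1 (0.405 and 0.459), both below 0.5. Tap1, Nisch and Stau1 are kept as coding sequence in some annotated protein-coding transcripts, while Tsr1, Stub1 and Sat1 meet a stop codon in frame.
Tap1 chr17:34192858-34192941(+): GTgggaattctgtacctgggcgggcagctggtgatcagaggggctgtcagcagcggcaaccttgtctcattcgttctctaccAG
Nisch chr14:31172027-31172110(-): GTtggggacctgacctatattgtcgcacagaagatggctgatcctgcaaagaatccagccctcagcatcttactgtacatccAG
Stau1 chr2:166950855-166950939(-): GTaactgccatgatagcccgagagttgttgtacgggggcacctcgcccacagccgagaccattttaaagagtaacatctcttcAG
Tsr1 chr11:74907965-74908045(+): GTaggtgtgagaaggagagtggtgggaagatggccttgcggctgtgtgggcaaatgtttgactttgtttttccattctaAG
Stub1 chr17:25831219-25831308(-): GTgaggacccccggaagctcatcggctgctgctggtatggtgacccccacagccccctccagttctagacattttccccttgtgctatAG
Sat1 chrX:155213959-155214032(-): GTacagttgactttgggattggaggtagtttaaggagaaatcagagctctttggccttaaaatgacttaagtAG

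The last group holds stretches within a coding exon, where no annotated transcript is spliced.
Itih3 chr14:30915388-30915450(-): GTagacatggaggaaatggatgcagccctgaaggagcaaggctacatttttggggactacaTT
Hsp90ab1 chr17:45569551-45569577(-): GTcatccgcaagaacatcgtcaagaAG
Rdh7 chr10:127887541-127887558(-): GTgactctgagcatgcTG
Serpina1a chr12:103898827-103898866(-): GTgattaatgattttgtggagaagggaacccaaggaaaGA

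The introns were between 11 and 100 bp long, with a median of 81 bp and quartiles of 72 and 89 bp. An annotated intron of the same coordinates existed for 1231 of the 1866, and 1117 of these lay in coding sequence. A further 127 lay wholly inside an exon of a protein-coding transcript, at coordinates where no transcript is annotated as spliced. The remaining 508 matched no annotated intron and lay inside no such exon, like the Nr1i3 and Vmp1 introns above. The classes had different lengths. Of the 1529 introns of 66 to 100 bp, 78.7% were annotated, against 8.01% of the 337 introns of 11 to 65 bp. The shortest, of exactly 11 bp, numbered 16.

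**Figure D1:**
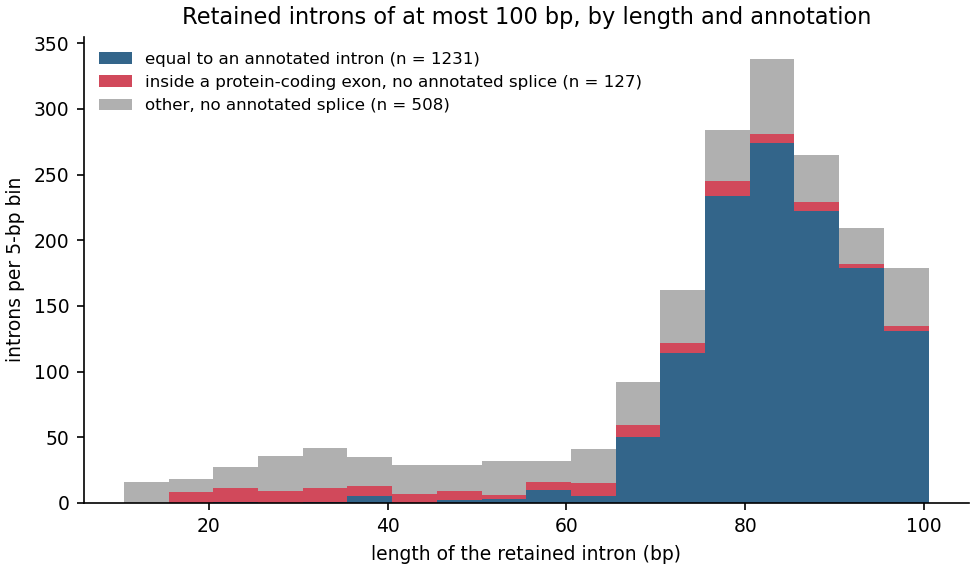
Lengths of the 1866 retained introns (x axis, bp; y axis, introns per 5-bp bin), stacked by annotation. Annotated introns gather between 66 and 100 bp, and the tail below 66 bp is mostly stretches with no annotated splice.

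Splice-site letters followed the annotation. Transcripts that keep the intron gave a sequence for 784 introns (42.0%), so the shares below describe those only. Annotated short introns began with GT and ended with AG in 455 of 480 cases (94.8%). Stretches inside a protein-coding exon did so in 33 of 127 cases (26.0%), and the other unannotated ones in 46 of 177 (26.0%). The Rdh7 stretch above, for instance, begins with GT but ends with TG. Annotated introns over 100 bp carried GT and AG in 97.1% of cases. Annotated short introns had a median GC content of 56.0%, against 53.2% in the longer ones. The branch-point-like motif CTNAN, searched on the sense strand within the last 50 bases, was found in 75.4% of annotated short introns and in 66.3% of longer ones. A match is a string of letters and not a mapped branch point.

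Most short introns had a low PSI, so most reads of their variations went to other entries. The median PSI was 0.0240 on LFD and 0.0214 on HFD, and 1094 introns (58.6%) lay under 0.05 on both diets, of which 338 stood within 0.0001 of the lower limit of the tables on both. For 239 of the 1094, the splice that would remove exactly the intron was not listed. For introns over 100 bp the medians were 0.0186 and 0.0197. At the other end, 177 short introns (9.49%) had a PSI of at least 0.5 on both diets, as had 133 of the longer ones (7.43%). Introns just inside and just outside the length limit were few. Those of exactly 100 bp, 33 in number, had medians of 0.0219 on LFD and 0.0141 on HFD, and the 28 that were 1 bp longer had 0.0287 and 0.0298.

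Of the annotation classes, stretches inside a protein-coding exon had the highest retention. These 127 stretches inside a protein-coding exon had median PSIs of 0.937 on LFD and 0.946 on HFD, and 81 of them (63.8%) were at or above 0.5 on both diets. Annotated short introns had medians of 0.0201 and 0.0180, with 63 (5.12%) mostly retained. The 508 other unannotated ones were close to these, with medians of 0.0239 and 0.0214 and 33 mostly retained. Within the annotated class the level differed by position in the transcript. Coding introns had medians of 0.0175 and 0.0161 (n = 1117), while the 26 introns of 5′ UTRs had 0.271 and 0.236 and the 33 of 3′ UTRs 0.121 and 0.122. Introns of noncoding transcripts lay between, at 0.0716 and 0.0858 (n = 55). The same order of coding below the untranslated and noncoding introns held over 100 bp, where the medians on LFD were 0.0147 for coding, 0.108 for 5′ UTR, 0.104 for 3′ UTR and 0.0726 for noncoding introns.

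**Figure D2:**
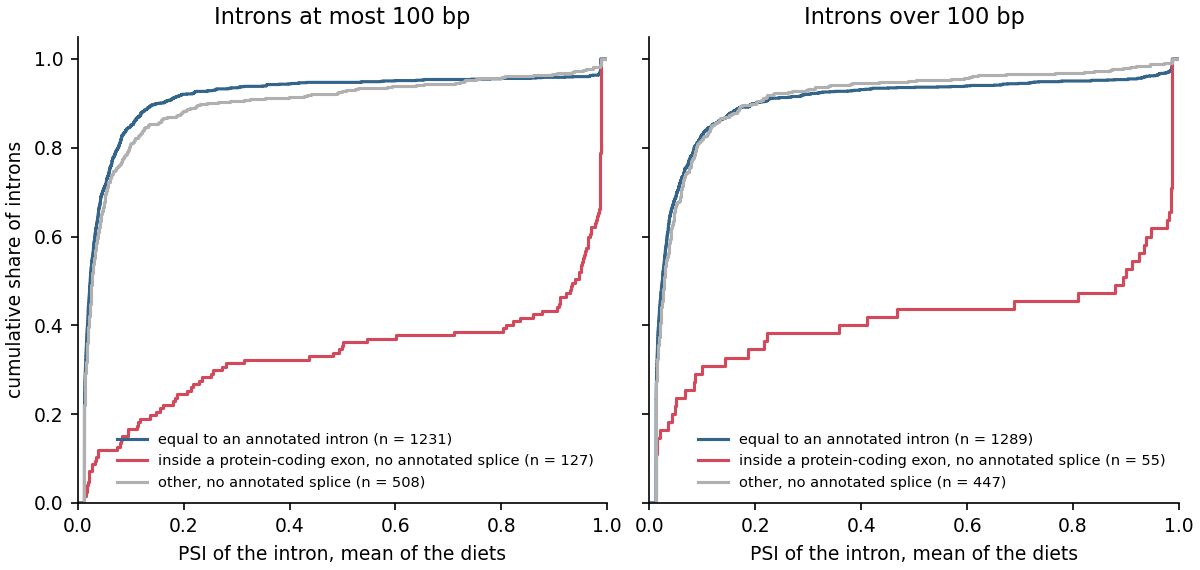
Cumulative share of introns (y axis) against PSI, as the mean of the diets (x axis), for introns of at most 100 bp (left) and over 100 bp (right), with 1 line per annotation class. The line for stretches inside a protein-coding exon rises late, mostly near the upper limit, in both panels, while the other lines rise near 0.

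At the upper limit of the tables, 51 introns stood within 0.0001 of 0.9875 on both diets, and the order among them has no meaning. The 10 first by mean PSI included a pair in Hsp90ab1, a cytosolic chaperone of the Hsp90 family, and 1 each in Itih3, a plasma protein that binds hyaluronan, Rpl18, a protein of the large ribosomal subunit, Gabarap, an autophagy protein, Rdh7, a retinol dehydrogenase, Stard10, a lipid-transfer protein, Adck3, which serves coenzyme Q synthesis, Gm26745 and AC092404.1. Of these, 8 lay within a protein-coding exon with no annotated splice.

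Annotated coding introns that were mostly retained were few. Of the 1117 annotated coding introns, 47 are kept within an exon of some other protein-coding transcript, and 11 of these had a PSI of at least 0.5 on both diets, against 8 of the other 1070. Tap1, which carries peptides into the endoplasmic reticulum for antigen presentation, had a PSI of 0.983 (posterior SD 0.0124) on LFD and 0.951 (0.0373) on HFD. Its 84-bp intron counts 28 codons without a stop. Nisch, which encodes an endosomal adaptor that binds integrin, stood at the upper limit on both diets, and Stau1, a double-stranded RNA-binding protein, had 0.982 and 0.987.

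Other coding introns kept a stop codon in the RNA. Tsr1, a ribosome assembly factor, had a PSI of 0.749 (posterior SD 0.0256) on LFD and 0.808 (0.0238) on HFD, and the stop begins at base 78 of its 81-bp intron. In Stub1, a ubiquitin ligase that works with Hsp70, the values were 0.405 (0.0274) and 0.459 (0.0308), with a stop at base 88 of 90. In both genes the retained RNA therefore reads through nearly the whole intron before it stops. Sat1, the acetyltransferase that sets polyamine breakdown, had 0.294 (0.0250) and 0.418 (0.0284), with a stop at base 63 of 74. Dalrd3 had 0.354 and 0.478, and the hydroxyproline-degrading enzyme Prodh2 0.305 and 0.392, both with a stop in frame. The Prodh2 stop, at base 2, is in the frame of the transcript that splices the intron. A protein-coding transcript that keeps this intron has both of its ends in coding sequence. The glucagon receptor Gcgr, whose intron holds no stop in frame, had 0.318 and 0.394. These introns were chosen after their values were seen, and each was higher on HFD without reaching a difference of 0.2. Other introns of the same genes did not all follow. A second coding intron of Stub1 had 0.318 and 0.309, and one of Dalrd3 had 0.123 and 0.0343. Coding introns of Actg1 and Park7, which also hold a stop in frame, stood at 0.9875 on both diets.

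Of the 417 coding introns with a sequence, 286 (68.6%) hold a stop codon in frame, 31 have none and are a multiple of 3 long, and 100 have none but shift the frame. Their median PSIs, as the mean of the diets, were 0.0285, 0.0336 and 0.0310. A mean PSI of at least 0.5 was reached by 6 of the 286 (2.10%), 2 of the 31 (6.45%) and 7 of the 100 (7%). The 480 annotated introns with a sequence were also split by GC content into a low, a middle and a high group of 160 each, whose median PSIs were 0.0290, 0.0363 and 0.0418.

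The diets gave nearly the same levels. Across the 1866 introns PSI correlated between diets with r = 0.975, a description of introns that share libraries and not of replicates. The median difference, HFD minus LFD, was 0. Values lay within 0.01 of each other for 925 introns, were higher on HFD by more for 521 and lower for 420, and 89 differed by at least 0.1. Among the 248 introns with a mean PSI from 0.1 to 0.9, the median difference was 0.0231, with 138 higher by over 0.01 and 75 lower. The 243 longer introns in that range had 0.0219. The HFD values were less precise, with a larger posterior SD at 187 of these 248 (75.4%) and medians of 0.0243 on LFD and 0.0284 on HFD. The part of this gap in precision in the differences was not tested.

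Introns were called where the PSIs of the diets were at least 0.2 apart and beyond the 95% normal range of the summed posterior variances. This is a threshold on reads and not a test between mice. It took in 19 introns in 15 genes, 8 higher on HFD and 11 lower, which is 1.02% of the short introns. The share was 0.984% over all retained introns, 0.949% for those over 100 bp and 0.417% over all 68110 junctions and introns, so the share of short introns was near that of introns in general. By direction, 0.429% of short introns were higher and 0.589% lower, against 0.52% and 0.465% of all introns, 0.614% and 0.335% of longer introns, and 0.21% and 0.207% of all junctions and introns. Of the 19, 6 were annotated introns (0.487% of 1231), 6 lay inside a protein-coding exon (4.72% of 127) and 7 were otherwise unannotated (1.38% of 508). Over 100 bp the shares of these classes were 0.698%, 3.64% and 1.34%. All 6 inside an exon were lower on HFD. Stretches of this class had a median PSI of 0.937 on LFD, so many had too little room to rise by 0.2. Apart from Cog1 and Srsf1, the 6 lay in Serpina1a and Serpina1b, whose values are uncertain, as described below. By length, 10 of the 337 introns of 11 to 65 bp were called (2.97%) and 9 of the 1529 longer ones (0.589%). Of those 10, 7 carried multi-copy symbols, as did 1 of the 9. Without such symbols the shares were 3 of 305 (0.984%) and 8 of 1451 (0.551%), and 11 of 1756 (0.626%) in all. The splice that would remove exactly the intron was itself listed for 1366 introns, with 9 calls (0.659%), and not listed for 500, with 10 calls (2.00%). Over 100 bp the shares were 0.822% of 1459 introns with that splice listed and 1.51% of 332 without.

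**Figure D3:**
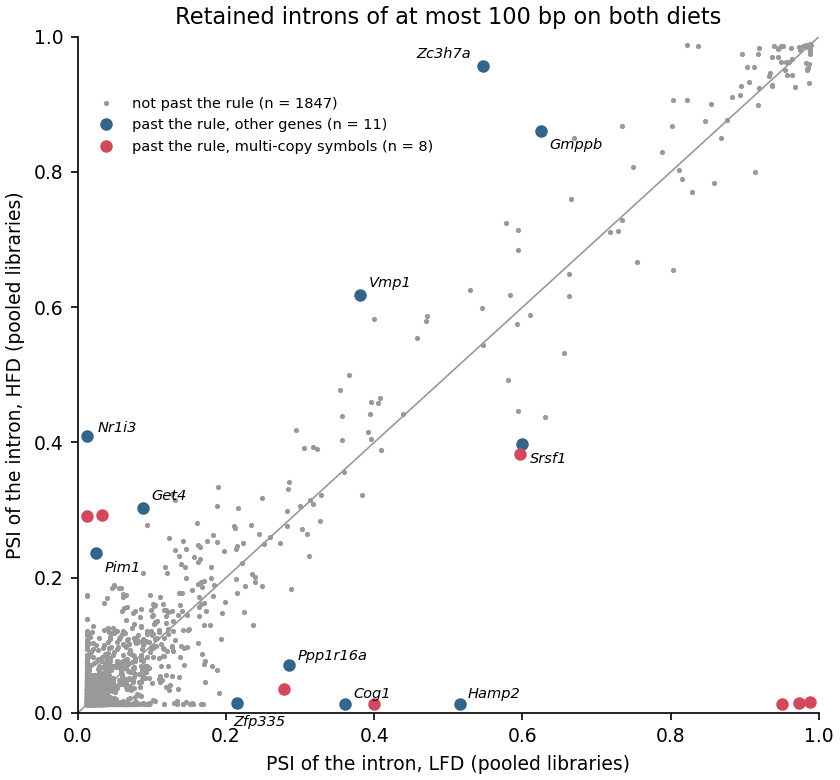
PSI on LFD (x axis) and HFD (y axis) of the 1866 introns, each a pooled value of 3 libraries. Grey points were not past the threshold, blue and red points were, and the 8 red ones carry symbols of multi-copy families or predicted genes.

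The largest decreases lay in genes with near-identical copies, while the largest increases were in Zc3h7a and Nr1i3, described further on. In Serpina1a, which encodes alpha-1-antitrypsin, a pair of 40-bp stretches inside a coding exon, the first of them printed above, went from 0.9875 to 0.0154 and from 0.973 to 0.0138. The only other entry in each variation was a junction over 41334 bases. In Serpina1b, an 18-bp stretch (chr12:103767758-103767775) went from 0.950 to 0.0125, a 24-bp stretch from 0.399 to 0.0125 and a 43-bp stretch from 0.597 to 0.382, with competing junctions of 35695 to 125508 bases. Mup11, a major urinary protein gene, had a 29-bp stretch at 0.0125 and 0.292 and a 41-bp stretch at 0.279 and 0.0345. Hamp2 is not among the symbols counted as multi-copy, but has a close copy in Hamp. An 18-bp stretch of Hamp2 (chr7:30942582-30942599), a hepcidin gene, went from 0.515 to 0.0134 beside a junction of 20052 bases that went from 0.256 to 0.981. Near-identical copies can share reads, so all of these values are uncertain.

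Called annotated introns lay in 6 genes. Of these, Get4, a factor that delivers tail-anchored proteins to the endoplasmic reticulum, was higher on HFD. At the 5′ end of its 82-bp intron PSI was 0.0880 (posterior SD 0.0255) on LFD and 0.303 (0.0453) on HFD, but at the 3′ end it was 0.228 (0.0355) and 0.209 (0.0423). The rise was thus read at one boundary only. The stop codon of the retained RNA begins at base 2 of the intron. Pim1, a serine/threonine kinase, went from 0.0251 to 0.236 at the 5′ end of its 88-bp coding intron (chr17:29491432-29491519) and from 0.0253 to 0.127 at the 3′ end, higher on HFD at both. The 91-bp intron in the 5′ UTR of Gmppb (chr9:108049421-108049511), which makes GDP-mannose, was listed at its 3′ end alone and went from 0.624 (0.0447) to 0.861 (0.0420). In the noncoding transcript of Gm17300, a predicted gene counted with the multi-copy symbols, an 84-bp intron (chr4:132352721-132352804) went from 0.0323 to 0.293 at its 5′ end, while its own splice stayed at 0.0125 on both diets.

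The annotated introns that were lower on HFD were those of Zfp335, a zinc-finger regulator of transcription, and Ppp1r16a, which targets protein phosphatase 1. The 79-bp coding intron of Zfp335 (chr2:164892462-164892540) had 0.215 (posterior SD 0.0425) on LFD and 0.0150 (0.00914) on HFD at the 3′ end, and 0.2 and 0.0151 at the 5′ end. Both boundaries gave nearly the same values. In Ppp1r16a, the 88-bp intron had 0.286 (0.0446) and 0.0715 (0.0318) at the 5′ end, and 0.202 and 0.113 at the 3′ end, lower on HFD at both with different sizes. This intron has no stop codon in frame but shifts the frame.

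The remaining calls lay outside annotated introns. Zc3h7a, a zinc-finger gene, had a 30-bp stretch (chr16:11144074-11144103) at 0.559 (posterior SD 0.0378) and 0.917 (0.0139) at the 5′ end and at 0.547 (0.0378) and 0.956 (0.0111) at the 3′ end. It was the only short intron past the threshold at both boundaries. Srsf1, an SR-family splicing factor, had a 77-bp stretch in a UTR of a protein-coding transcript (chr11:88050832-88050908) at 0.599 and 0.398 at the 5′ end and at 0.670 and 0.495 at the 3′ end. A junction over 881 bases that skips this stretch went the other way, from 0.311 to 0.550. In Cog1, a subunit of the Golgi tethering complex COG, a 29-bp stretch in a UTR exon (chr11:113661630-113661658) went from 0.360 to 0.0131 while the junction over 988 bases went from 0.629 to 0.983.

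Nr1i3 and Vmp1 showed the boundaries of a short intron apart. Nr1i3 encodes CAR, the nuclear receptor that switches on drug-metabolising genes. At the 5′ end of its 69-bp stretch PSI was 0.0125 on LFD and 0.410 (posterior SD 0.0335) on HFD, and at the 3′ end 0.439 (0.0314) and 0.461 (0.0328). The boundaries were thus close to each other on HFD and far apart on LFD. The splice of exactly 69 bases had 0.0125 and 0.0129. The main competing splice, of 92 bases to the same 3′ end, went from 0.806 to 0.498 in the variation at the 5′ end and was 0.454 and 0.455 in that at the 3′ end. Vmp1, a membrane protein needed to form autophagosomes, had a 73-bp stretch that went from 0.381 (0.0263) to 0.618 (0.0304) at the 3′ end and stood at 0.987 on both diets at the 5′ end. Its competing junction at the 3′ end, over 15409 bases, went from 0.615 to 0.382.

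How well the boundaries of an intron matched was therefore examined for all introns with both listed, 1557 of the 1866. PSI correlated between the boundaries with r = 0.897 on LFD and 0.905 on HFD, and the difference between diets with r = 0.557, as a description across introns of the same libraries. The threshold was passed at the 5′ end by 11 introns, at the 3′ end by 7 and at both by 1. Among the 16 introns past it at one end only, the other end had the same sign in 15, a difference of at least 0.1 in the same direction in 7, and a difference within 0.06 of 0 in 8. For longer introns, 1535 had both boundaries, with 7 calls at the 5′ end, 14 at the 3′ end and 3 at both. Of the 19 called short introns, 10 were listed at one boundary only.

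**Figure D4:**
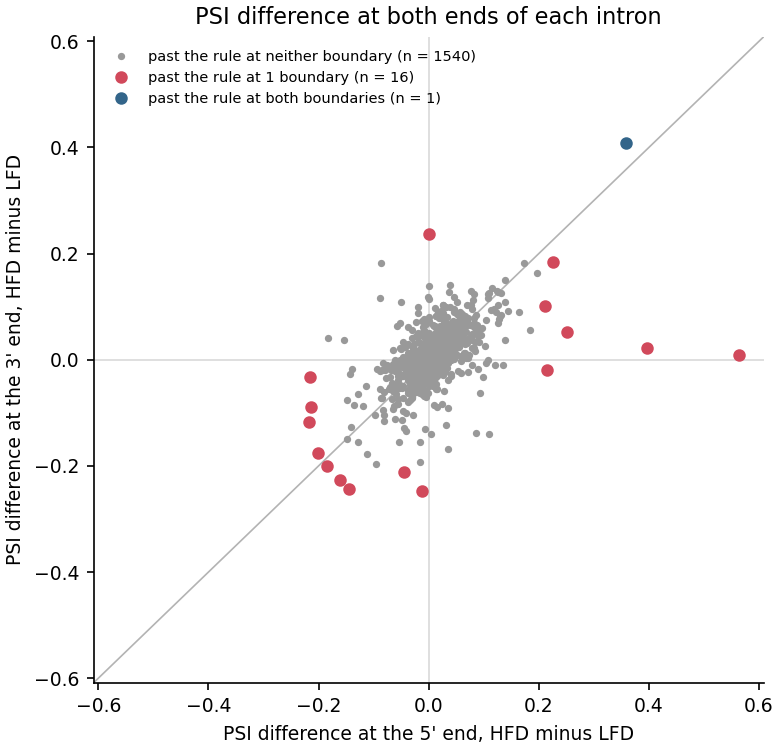
Difference in PSI, HFD minus LFD, at the 5′ end (x axis) and the 3′ end (y axis) of the 1557 short introns listed at both boundaries, with the line of equality. Of the coloured points past the threshold, the 1 blue point is past it at both ends and the 16 red ones at one end.

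Counting a call in any listing of an intron, at either boundary or under another gene, gave 28 of the 1866 introns. They lay in 23 genes, with 11 higher on HFD and 17 lower. The choice was made after seeing the data. No matching share over longer introns or over all entries is given. The shares above were taken at a single boundary and cannot be set beside this count, so it is a description only. The largest differences among the 9 introns added were again in genes with near-identical copies. A 64-bp stretch of Serpina1b went from 0.0125 to 0.576 at the 5′ end and had 0.933 and 0.942 at the 3′ end. A 34-bp stretch, read at its 5′ end in both listings, went from 0.555 to 0.0125 under Gm8893. Under Serpina1d the same stretch had 0.937 and 0.927. The other 7 were in Smpd2, Plekhj1, Cidec, Stat2, Nme3, Gtpbp6 and Tmem33. Smpd2, a neutral sphingomyelinase, went from 0.0191 to 0.271 at the 5′ end of its 79-bp intron and from 0.0444 to 0.0970 at the 3′ end. Plekhj1, a pleckstrin-homology protein, was higher on HFD at both ends of its 70-bp coding intron (chr10:80797840-80797909), with 0.0258 and 0.252 at the 5′ end and 0.0935 and 0.278 at the 3′ end. Cidec, which promotes the fusion of lipid droplets, was lower on HFD, with 0.230 (posterior SD 0.0391) and 0.0134 (0.00495) at the 5′ end of its 83-bp coding intron (chr6:113428312-113428394), and 0.0459 and 0.0134 at the 3′ end.

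Stat2, which carries type I interferon signals to the nucleus, had 0.191 and 0.0300 at the 5′ end and 0.253 and 0.0272 at the 3′ end of a 72-bp intron. The splice of exactly those 72 bases, which the sequence above shows to end in CT, stood at 0.0125 and 0.0127. The splice of 75 bases from the same 5′ end, in the variation at the 3′ end, had 0.745 and 0.970. Nme3, a nucleoside diphosphate kinase, had 0.223 and 0.0127 at the 3′ end of its 68-bp coding intron (chr17:24896560-24896627) but 0.0579 and 0.0127 at the 5′ end. The 100-bp coding intron of Gtpbp6 (chr5:110105099-110105198), at the length limit, had 0.235 and 0.0181 at the 5′ end and 0.134 and 0.0180 at the 3′ end. Tmem33, a protein of the endoplasmic reticulum membrane, went from 0.261 to 0.0126 at the 3′ end of a 90-bp stretch in a UTR exon (chr5:67260807-67260896) and from 0.0250 to 0.0126 at the 5′ end. In these genes the HFD value was near the lower limit at both ends, and the LFD values of the ends differed.

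**Figure D5:**
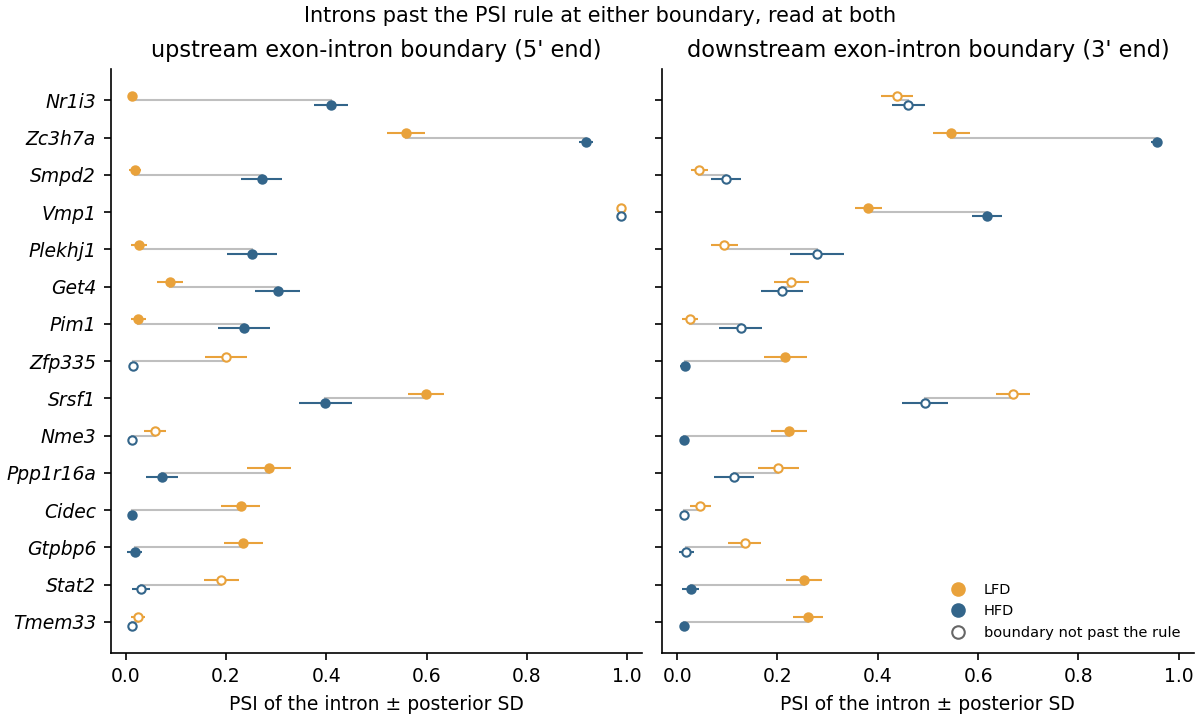
PSI with posterior SD (x axis) on LFD (orange) and HFD (blue) at the 5′ end (left) and 3′ end (right) of introns past the threshold at either boundary and listed at both, without Serpina1, Mup11 and Gm genes. Filled points mark the boundary past the threshold. Zc3h7a is filled on both sides, while Vmp1 and Nr1i3 lie apart between the panels.

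Over the 6 gene lists, 3 of 280 short introns were called (1.07%), a share near the 1.02% of all short introns, so the counts per list that follow are a description. RNA-processing genes had 85 short introns in 45 genes, with medians of 0.0373 on LFD and 0.0394 on HFD, above the 0.0240 and 0.0214 of all short introns. A single one of them, in Srsf1, was called (1.18%), and 6 differed by at least 0.1 (7.06%, against 4.77% of all short introns). These included Srsf2 at 0.655 and 0.533, Srsf11 at 0.734 and 0.868, Tardbp at 0.236 and 0.131, and the polyadenylation factor Cpsf1 at 0.0586 and 0.185. They moved in both directions, and 9 of the 85 were mostly retained on both diets.

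Lipid and sterol genes had 70 short introns in 23 genes, with medians of 0.0125 and 0.0130 and no call at the boundary used. Fasn, fatty acid synthase, alone had 14, the highest at a mean PSI of 0.0392, with differences from -0.0274 to 0.00214. The largest difference in the list was in Dgat1, which makes triglyceride, where an 84-bp intron had 0.0127 and 0.115, and Srebf1, the regulator of lipogenic genes, had 8 short introns with differences from -0.0743 to 0.0377. A single one of the 70 was mostly retained on both diets. Cidec, described above, passed at its other boundary. Nuclear receptor and xenobiotic genes had 25, with Nr1i3 called. Mitochondrial genes had 29 and interferon and inflammation genes 50, with no call at the boundary used and Stat2 past the threshold at the other, and ubiquitin and lysosome genes 21, with Vmp1 called. The complement gene C4b had 11 short introns with differences between -0.00431 and 1.07e-05.

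The authors' deposited table of changed variations listed 65 retained introns, 19 of them at most 100 bp. A change of at least 0.2 was listed for 15 of the short ones in the authors' deposited table, 8 higher on HFD and 7 lower. The same holds for 78.5% of all introns and 51.1% of all entries in it, since the table is a selection. Of the 15, 14 were also in both PSI tables, and 12 of those lay within 0.02 of the listed levels on both diets. Both sets of values come from the same libraries, so this closeness is not independent support. For Srsf1 the authors' deposited table gave 0.597 and 0.003 at the 5′ end and 0.667 and 0.003 at the 3′ end, far lower on HFD than the 0.398 and 0.495 of the PSI tables. For Hamp2 the authors' deposited table gave 0.4 and 0.003. A 91-bp stretch of Cyp3a25, a cytochrome P450, had 0.01 and 0.421 by the authors' deposited table and was not among the introns shared by the PSI tables.

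JUM, a second program that lists retained introns as events of their own, had 118 of them in the authors' deposited table, 25 at most 100 bp. Of these 25, in 22 genes, 11 were higher on HFD and 14 lower, and none passed an adjusted p-value of 0.05 in the authors' deposited table, where 36.4% of all listed introns did. All 25 had an unadjusted p-value under 0.05 in the authors' deposited table. The lowest adjusted p-value of a short intron was 0.0609, for Tmem147, with a change of 0.0409 in the authors' deposited table. The other short introns had changes from -0.0663 in Ctsa, a lysosomal carboxypeptidase, to 0.0710 in Amt, of the glycine cleavage system. Short introns had a median absolute change of 0.0260 in the authors' deposited table, against 0.130 for the 93 longer ones, of which 87 were higher on HFD and 43 passed the adjusted p-value. Of the 25, 15 were among the 1866 introns examined here, and in the PSI tables none of these was called. The complement gene C3 had 4 of the 25, with changes from -0.0149 to 0.0108 in the authors' deposited table.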

How the data were processed

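Hepatocyte mRNA of 6 mouse libraries, 3 per diet, was read by paired-end sequencing. The submitters' processing notes name FastQC, STAR and the build mm10, without versions. Per the file headers, the authors deposited tables of the MAJIQ viewer with PSI, a fraction, and its variance per entry and diet, a table of changes in PSI, and a JUM table with p-values and adjusted p-values. The posterior SD is the root of the deposited variance. Introns were matched to GENCODE M21, on the same build, with Python 3.11.15 and pandas 2.3.3. JUM coordinates lie 1 base below those of the other tables. The threshold was also run on simulated reads with known changes. That simulation held no spread between mice and no reads shared by copies, so it cannot speak to either. Gene lists, members and the rule for named genes (all called introns, the 10 highest levels, the introns of the authors' tables and called list members) were chosen with earlier results of these data known, so no list is independent support. Multi-copy symbols were those beginning Serpina, Mup, Cyp, Ugt, Ces or Gm with a digit, or ending in Rik. Alternatives were other thresholds, lengths, boundaries, annotation and filters.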

Additional observations from a re-analysis of the deposited data

How the results depend on the processing

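No paired analysis was possible because the tables hold values pooled per diet, and for the same reason leaving out a library was not run. Against 19 called introns (8 higher and 11 lower on HFD), a difference of 0.1 gave 87 (51 and 36), a difference of 0.3 gave 8 (2 and 6), a call at every listed boundary 11 (4 and 7), annotated introns alone 6 (4 and 2), and leaving out multi-copy symbols 11 (5 lower). Of the 11 called at every listed boundary, 10 were listed at one boundary only, so for them this repeats the first call. Zc3h7a alone was listed at both boundaries and past the threshold at both. With choices added after seeing the data, 17 were lower with a call in any listing of an intron, and 5 higher with the 3′ end first. The median difference and the count of mostly retained introns moved little under any alternative tried. A change of 0.3 left 6 of the 15 introns of the authors' table of changes. Of the 25 short JUM introns, 9 were at most 90 bp, 0 passed an adjusted p-value of 0.05 and 7 passed 0.25. Posterior SDs cover reads only, so these limits say nothing of the spread between mice.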
